A study of Zea mays with 12 samples.

Results

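This report concerns 56 transcripts named as abundant in well-watered maize primary root tips and nearly lost under water stress, chosen from 42976 features in the count table. The name stands for the limits below and not for a full loss. In 24 of the 56, the higher stressed mean was still 0.2 to 0.25 of the lower well-watered mean. CPM is a feature's raw count divided by the sum over all features of its library and multiplied by 1000000, with the summary rows of the counter left out. A feature was taken when its mean was at least 10 CPM in both well-watered groups and both stressed means were at most 0.25 of the lower well-watered mean. These limits were met by 65 features, of 12576 with at least 10 CPM in both well-watered groups. Of 12 genes left out by name, 9 met the limits and 3 did not.

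Seedlings of the maize inbred line FR697 grew in the dark at 29 °C in vermiculite mixed with 1 mM CaSO4. The well-watered groups WW24 and WW48 were kept at −0.02 MPa and the stressed groups WS24 and WS48 at −1.6 MPa, and root tips were cut 24 h or 48 h after transplanting. Each group has 3 libraries, which the study describes as independent experiments, and each sample pools tips from seedlings. Well-watered tips were cut at 12 mm and stressed tips at 7 mm so as to hold the whole elongation zone, so segment length and treatment cannot be told apart. In such bulk samples, fewer cells of a type and less RNA per cell cannot be told apart either. All of this is 1 genotype and 1 stress level. Stressed roots elongated more slowly. The study therefore set WS48 against WW24, with roots of about equal length, and against WW48, of equal age. It collected no well-watered control of equal root length for WS24, so stress and root development cannot be told apart in WS24 vs WW24.

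The elongation zone lies behind the meristem, where cells stop dividing, lengthen and start to differentiate. Its cells load their walls with polysaccharides and glycoproteins, import sugars, and begin to make specialised compounds such as methylated and glycosylated phenolics. Water deficit shortens this zone in maize roots, and abscisic acid (ABA) accumulates there.

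Because the stress comparisons chose the transcripts, their falls are given as values with no test. The tests concern the change from 24 h to 48 h. The limits set no direction for it, but they read the same 4 group means and cap both stressed means, so a transcript that recovered past the cap by 48 h could not be among the 56. The higher stressed mean was between 0.00623 and 0.248 of the lower well-watered mean, with a median of 0.188. It was under 0.1 for 13 transcripts, from 0.1 to 0.2 for 19 and above that for 24. The fitted log2 change had a median of −2.86 in WS24 vs WW24, −3.37 in WS48 vs WW48 and −2.77 in WS48 vs WW24, where the median over all features tested was 0.01 in each. Together the 56 transcripts held 4447 ± 104 CPM in WW24 and 5645 ± 1004 CPM in WW48, against 684 ± 40.7 CPM in WS24 and 795 ± 120 CPM in WS48 (mean ± SD, n = 3). All 6 well-watered libraries were above all 6 stressed ones in 53 of the 56. The same holds for 14.5% of features with at least 10 CPM in both well-watered groups, and for 9.82% of all features tested. Nothing is read from these shares since the limits nearly fix the order. Where single transcripts are said below to keep this order, that describes their values and is no support from the replicates. The other 3 overlapped and are described among the uneven transcripts.

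**Figure D1:**
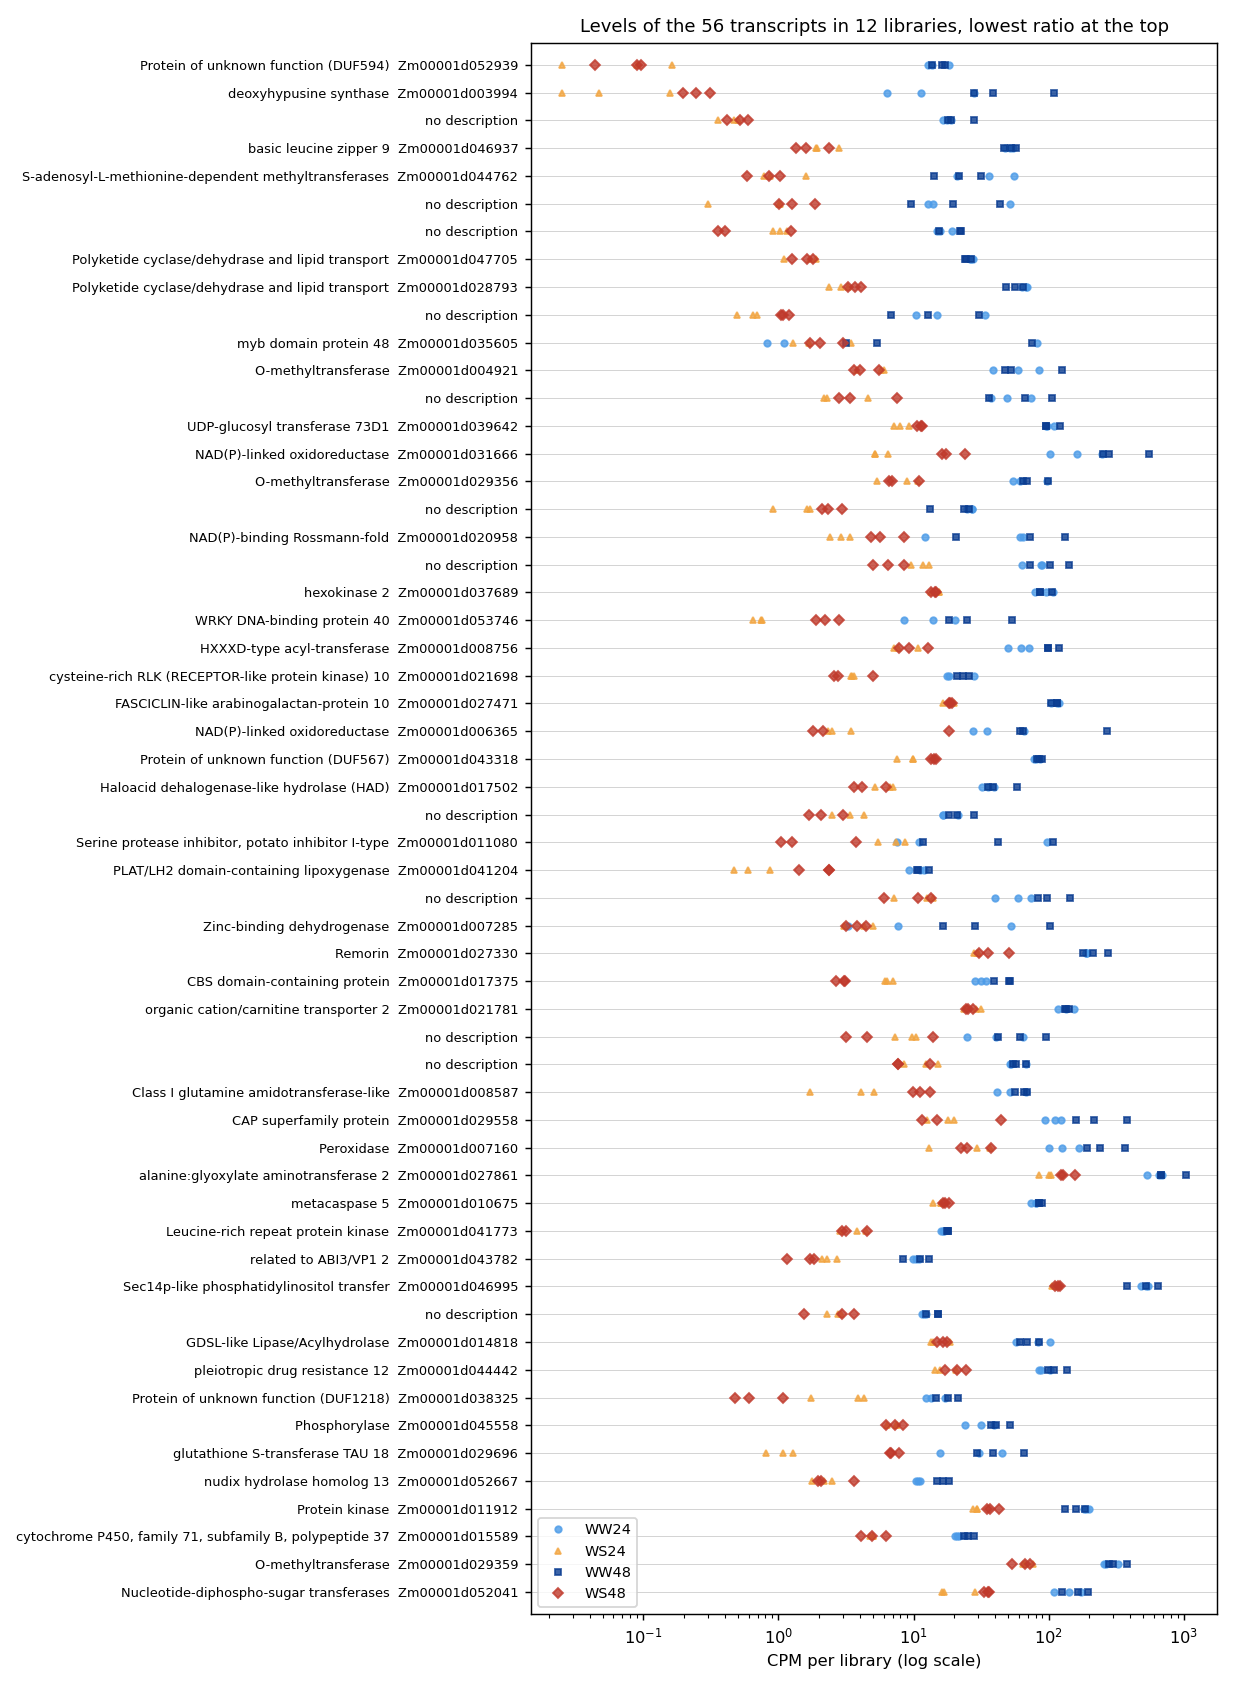
Levels of the 56 transcripts, 1 row each, in CPM on a log axis, with 1 point for each of the 12 libraries and the lowest ratio of stressed to well-watered means at the top. Well-watered points (circles, squares) lie right of stressed points (triangles, diamonds) in 53 rows, an order that the limits nearly fix. The rows of myb domain protein 48, the potato inhibitor I-type protein and the zinc-binding dehydrogenase mix them.

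Libraries held between 40005384 and 54863708 counts on features, and all 56 transcripts passed the low-count filter, which their well-watered level alone ensures. They had at least 2980 reads over the well-watered libraries, and 2 had fewer than 100 over the stressed ones. Descriptions were at hand for 44 transcripts and came from the study's own tables of stress-responsive transcripts and of orthologs. Genes are named by these descriptions, and whether each has the function so named was not tested. Cell type markers could be read only through the same descriptions. The summed level of 8 described genes of xylem and secondary walls was 944 to 1189 CPM in well-watered and 438 to 524 CPM in stressed libraries. Of the 8, 3 were called decreased and 4 increased by the DAT call explained with the transcription factors. The sum of 4 genes described as forms of phloem protein 2 was 47.3 to 52.8 and 41.7 to 52.5 CPM (2 of the 4 called decreased and 0 increased). Whether these 4 mark phloem in this tissue was not tested. Expansin A7 and a root hair defective 3 protein together were at 0.882 to 1.91 CPM in well-watered and 17.9 to 52.4 CPM in stressed libraries. The photosynthetic gene light-harvesting chlorophyll B-binding protein 3 was at 2.88 to 3.77 CPM in well-watered and 0.6304 to 1.304 CPM in stressed libraries. No marker was among the 56, no marker of dividing cells was described, and the part of tissue makeup in the falls was not tested.

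Nearest inside the ratio limit were a nucleotide-diphospho-sugar transferase (Zm00001d052041, 0.248), an O-methyltransferase (Zm00001d029359, 0.245) and a cytochrome P450 of family 71, subfamily B, polypeptide 37 (Zm00001d015589, 0.241). Nearest outside it were an ACT domain repeat 3 gene (Zm00001d016811, 0.259), a protein kinase (Zm00001d002283, 0.261) and a sucrose-6F-phosphate phosphohydrolase (Zm00001d024821, 0.262). The set therefore ends within a continuous range of ratios. At the level limit, related to ABI3/VP1 2 (Zm00001d043782) entered with a lower well-watered mean of 10.5 CPM and a lipoxygenase (Zm00001d041204) with 10.8 CPM, while an HSP20-like chaperone (Zm00001d021634) stayed outside at 9.83 CPM.

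The lowest ratios belonged to a gene of unknown function and a gene described as deoxyhypusine synthase. The DUF594 gene Zm00001d052939 was at 12.7, 13.6 and 18.4 CPM in WW24 and 16.4, 17.04 and 13.8 CPM in WW48, against 0.164, 0.0899 and 0.025 CPM in WS24 and 0.0953, 0.0896 and 0.0435 CPM in WS48. This was 4292 reads over the well-watered libraries and 22 over the stressed ones, so its stressed level rests on a handful of reads. The gene described as deoxyhypusine synthase, the enzyme that starts the hypusine modification of a translation factor, was at 6.37, 28.2 and 11.3 CPM in WW24 and 109.8, 28.1 and 38.4 CPM in WW48, against 0.0468, 0.157 and 0.025 CPM in WS24 and 0.31, 0.246 and 0.196 CPM in WS48 (Zm00001d003994). Its stressed libraries held 43 reads in all, and its well-watered level differed widely between libraries. A methyltransferase that uses S-adenosylmethionine, Zm00001d044762, had 14.2 to 55.5 CPM in the well-watered and 0.582 to 1.596 CPM in the stressed libraries, with all stressed values far below the lowest well-watered value.

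Transcription factors among the 56 numbered 4. In 3 of them every well-watered library was above every stressed one, an order that the limits nearly fix. The same order was found in 14.5% of features with at least 10 CPM in both well-watered groups. Basic leucine zipper 9 (Zm00001d046937), a dimer-forming DNA-binding protein, was at 47.2, 52.1 and 54.6 CPM in WW24 and 57.1, 47.1 and 52.6 CPM in WW48, against 2.79, 1.91 and 1.92 CPM in WS24 and 2.36, 1.34 and 1.61 CPM in WS48. Its well-watered libraries lay close together at both times, and its mean went from 51.3 ± 3.78 to 2.21 ± 0.501 CPM at 24 h and from 52.3 ± 5.05 to 1.77 ± 0.526 CPM at 48 h (mean ± SD, n = 3). WRKY DNA-binding protein 40 (Zm00001d053746), in Arabidopsis a regulator of defence and ABA responses, was at 8.48, 20.3 and 14.04 CPM in WW24 and 24.7, 18.4 and 53.8 CPM in WW48, against 0.749, 0.742 and 0.65 CPM in WS24 and 2.22, 1.904 and 2.78 CPM in WS48. Its highest stressed library stayed below its lowest well-watered one. Related to ABI3/VP1 2, in Arabidopsis a repressor of flowering with AP2 and B3 domains, had 8.31 to 12.9 CPM in the well-watered and 1.16 to 2.72 CPM in the stressed libraries. The fourth, myb domain protein 48, is described with the uneven transcripts. Of 121 other tested factors with a description, 51 were decreased DATs and 52 increased DATs, where a DAT (differentially accumulated transcript) has to be called with 1 sign when WS48 is set against each well-watered group. A call takes an adjusted p of 0.05 or less in edgeR's quasi-likelihood test and a log2 change of 1 or more, up or down. Over all 26746 features tested, 4.03% were decreased and 5.53% increased DATs. Described genes were mostly chosen by the study as such transcripts on these libraries, so the shares in this and the other lists are no independent evidence.

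Enzymes of specialised metabolism formed the largest named group, with 6 transcripts, and 3 of these were O-methyltransferases, which place methyl groups on phenolics and other small molecules. The first, Zm00001d004921, was at 38.5, 59.4 and 84.8 CPM in WW24 and 126, 52.3 and 47.8 CPM in WW48, against 3.82, 6.02 and 5.77 CPM in WS24 and 4.003, 3.63 and 5.57 CPM in WS48. The second, Zm00001d029356, was at 54.3, 61.5 and 97.3 CPM in WW24 and 98.2, 64.4 and 68.7 CPM in WW48, against 5.34, 8.99 and 10.8 CPM in WS24 and 6.93, 6.54 and 10.9996 CPM in WS48. Zm00001d029359 drew more reads and had 255 to 380.01 CPM in the well-watered and 53.8 to 77.1 CPM in the stressed libraries. Treatments were apart in all libraries for each, though the last sat just inside the ratio limit. Its identifier is close to that of Zm00001d029356, and whether the genes share reads was not examined. Among 13 other tested genes with this description, 5 were decreased and 3 increased DATs. UDP-glucosyl transferase 73D1 (Zm00001d039642), of the enzymes that attach glucose to small acceptors, was at 109, 96.8 and 96.4 CPM in WW24 and 121, 96.1 and 95.2 CPM in WW48, against 7.89, 9.33 and 7.17 CPM in WS24 and 10.6, 11.3 and 11.5 CPM in WS48. An HXXXD-type acyltransferase (Zm00001d008756), of the family that acylates phenolics and alcohols, had 49.6 to 118 CPM in the well-watered and 7.14 to 12.8 CPM in the stressed libraries. The P450 gene Zm00001d015589 had 20.2 to 28.1 CPM in the well-watered and 4.05 to 6.26 CPM in the stressed libraries. Both stood apart between treatments in every library, which the limits nearly fix. Among 14 other tested genes with the acyltransferase description, 6 were decreased and 5 increased DATs. The 1 other tested gene with the P450 description was an increased DAT. In the whole list, 46 of 109 other tested genes were decreased and 41 increased DATs.

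Enzymes of redox chemistry and detoxification were also among the 56. The pair described as NAD(P)-linked oxidoreductases reduce carbonyl groups with NADPH in their family. Zm00001d031666 was at 249.5, 161 and 102 CPM in WW24 and 555, 254 and 281 CPM in WW48, against 5.22, 5.17 and 6.45 CPM in WS24 and 17.3, 16.1 and 23.9 CPM in WS48. Zm00001d006365 was at 27.6, 34.7 and 65.96 CPM in WW24 and 272, 64.6 and 61.3 CPM in WW48, against 2.48, 2.32 and 3.45 CPM in WS24 and 1.81, 2.13 and 18.3 CPM in WS48, with WW48 replicate 1 and WS48 replicate 3 well above the other libraries of their groups. Treatments were apart in both genes, but for Zm00001d006365 the highest stressed library came close to the lowest well-watered one. The 1 other tested gene with the description of this pair was an increased DAT. Glutathione S-transferase TAU 18 (Zm00001d029696), which conjugates glutathione to reactive compounds, was at 45.3, 30.3 and 15.6 CPM in WW24 and 65.3, 29.4 and 38.7 CPM in WW48, against 1.08, 0.809 and 1.27 CPM in WS24 and 6.77, 7.79 and 6.67 CPM in WS48. The class III peroxidase Zm00001d007160, a secreted enzyme that uses hydrogen peroxide, was at 100.3, 167 and 125 CPM in WW24 and 370.1, 193 and 239.7 CPM in WW48, against 12.99, 37.1 and 29.4 CPM in WS24 and 22.4, 24.95 and 37.2 CPM in WS48. Both genes were lower in each stressed library than in any well-watered one. Of 27 other described peroxidases tested, 20 were decreased and 4 increased DATs, and of 19 other described glutathione S-transferases and redox proteins 13 and 5.

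Sugar and glyoxylate metabolism were each represented by 1 transcript. Hexokinase 2 (Zm00001d037689), which phosphorylates glucose and fructose on entry into metabolism, was at 79.8, 95.01 and 108 CPM in WW24 and 106, 85.96 and 86.9 CPM in WW48, against 13.4, 15.5 and 15.5 CPM in WS24 and 13.6, 14.8 and 14.3 CPM in WS48. Its mean went from 94.2 ± 14.05 to 14.8 ± 1.21 CPM at 24 h and from 92.9 ± 11.2 to 14.2 ± 0.607 CPM at 48 h (SD, n = 3), with no overlap between treatments. Alanine:glyoxylate aminotransferase 2 (Zm00001d027861), which turns glyoxylate into glycine, was at 536, 694 and 652 CPM in WW24 and 1044, 684 and 682 CPM in WW48, against 101, 103 and 84.5 CPM in WS24 and 127, 123 and 156 CPM in WS48. Replicate 1 of WW48 was above the other 2 there, and no stressed library reached the lowest well-watered one. Of 33 other described genes of sugar and inositol metabolism, 18 were decreased and 15 increased DATs. A nudix hydrolase homolog 13 (Zm00001d052667), of a family that cleaves nucleoside diphosphate derivatives, had 10.5 to 18.4 CPM in the well-watered and 1.77 to 3.65 CPM in the stressed libraries. A phosphorylase superfamily gene (Zm00001d045558) had 23.98 to 52.1 CPM in the well-watered and 6.27 to 8.37 CPM in the stressed libraries, and a haloacid dehalogenase-like hydrolase (Zm00001d017502) 32.3 to 58.8 CPM in the well-watered and 3.65 to 7.07 CPM in the stressed libraries. All 3 were lower in each stressed library than in any well-watered one, which the limits nearly fix.

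Of wall, membrane and transport genes, 5 were among the 56. FASCICLIN-like arabinogalactan-protein 10 (Zm00001d027471), a glycoprotein of the cell surface and wall, was at 115, 104 and 120.1 CPM in WW24 and 103, 116 and 116 CPM in WW48, against 16.6, 18.5 and 20.02 CPM in WS24 and 18.4, 19.3 and 18.5 CPM in WS48. It was among the most even transcripts of the set. The sugar transferase Zm00001d052041 had 109 to 195 CPM in the well-watered and 16.3 to 36.2 CPM in the stressed libraries. The remorin gene Zm00001d027330, of a family that organises plasma membrane domains, was at 188, 188 and 192 CPM in WW24 and 179, 276 and 215 CPM in WW48, against 29.6, 27.9 and 29.996 CPM in WS24 and 35.7, 30.7 and 51.2 CPM in WS48. Organic cation/carnitine transporter 2 (Zm00001d021781) had 117 to 153 CPM in the well-watered and 23.8 to 31.5 CPM in the stressed libraries, and pleiotropic drug resistance 12 (Zm00001d044442), an ABC transporter that imports ABA in Arabidopsis, 84.7 to 137 CPM in the well-watered and 14.3 to 24.6 CPM in the stressed libraries. No library broke the order of treatments in these genes, an order that the limits nearly fix. The 1 other tested gene described as pleiotropic drug resistance 12 was an increased DAT. The 1 other described as FASCICLIN-like arabinogalactan-protein 10 was a decreased DAT. Among other described genes, decreased and increased DATs numbered 45 and 31 of 80 for walls, and 43 and 68 of 113 for transporters and channels. With glmTreat the wall counts turned to 26 decreased and 27 increased, those of specialised metabolism to 24 and 26, those of signalling to 22 and 23, and those of oxylipins and defence to 7 and 10.

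The 4 transcripts of lipid handling included a pair described as polyketide cyclase/dehydrase and lipid transport proteins, a fold that also forms the ABA receptors. Zm00001d047705 was at 27.7, 26.8 and 26.3 CPM in WW24 and 24.1, 24.7 and 26.6 CPM in WW48, against 1.71, 1.91 and 1.0998 CPM in WS24 and 1.62, 1.25 and 1.804 CPM in WS48. Zm00001d028793 was at 63.6, 68.6 and 68.8 CPM in WW24 and 48.5, 56.2 and 64.2 CPM in WW48, against 2.903, 3.26 and 2.35 CPM in WS24 and 3.67, 3.27 and 4.07 CPM in WS48. In both, the well-watered libraries lay close together and far above the stressed ones. A Sec14p-like gene (Zm00001d046995), of proteins that move phosphatidylinositol between membranes, had 379 to 642 CPM in the well-watered and 106 to 121 CPM in the stressed libraries. The GDSL-like lipase Zm00001d014818 had 57.5 to 102 CPM in the well-watered and 13.5 to 18.6 CPM in the stressed libraries. Among 95 other described genes of the list, 31 were decreased and 49 increased DATs, and 3 other genes with the polyketide cyclase description gave 1 decreased and 2 increased DATs. The Sec14p-like description gave 1 decreased and 3 increased DATs among 4 other tested genes, and the GDSL-like description 7 and 8 among 15.

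Genes of signalling and defence completed the described groups. The kinase Zm00001d011912 had 132 to 199 CPM in the well-watered and 27.6 to 43.04 CPM in the stressed libraries, cysteine-rich receptor-like kinase 10 (Zm00001d021698) 17.7 to 27.98 CPM in the well-watered and 2.598 to 4.98 CPM in the stressed libraries and the leucine-rich repeat kinase Zm00001d041773 15.9 to 18.1 CPM in the well-watered and 2.86 to 4.52 CPM in the stressed libraries. All 3 were ordered by treatment in every library, which the limits nearly fix. In defence, a CAP superfamily gene (Zm00001d029558), from the family of pathogenesis-related protein 1, was at 123, 93.9 and 112 CPM in WW24 and 382, 217 and 159 CPM in WW48, against 20.02, 17.9 and 12.7 CPM in WS24 and 14.8, 11.6 and 44.4 CPM in WS48. The lipoxygenase Zm00001d041204, which oxygenates polyunsaturated fatty acids and so starts oxylipin synthesis, was at 11.2, 9.33 and 11.9 CPM in WW24 and 13.1, 10.8 and 10.7 CPM in WW48, against 0.866, 0.472 and 0.6 CPM in WS24 and 2.38, 1.41 and 2.35 CPM in WS48. Metacaspase 5 (Zm00001d010675), a cysteine protease, had 74.5 to 88.6 CPM in the well-watered and 13.9 to 18.4 CPM in the stressed libraries. Of 163 other described signalling genes 69 were decreased and 59 increased DATs, of 50 oxylipin and defence genes 18 and 17, and of 22 proteases 11 and 9. Among 4 other tested genes with the CAP description, 1 was a decreased and 3 were increased DATs. The 1 other with the lipoxygenase description was an increased DAT. The leucine-rich repeat kinase description gave 3 decreased and 1 increased DATs among 4 others.

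Further described transcripts were a CBS domain protein, a DUF567 gene, a DUF1218 gene and a class I glutamine amidotransferase-like gene. The DUF567 gene Zm00001d043318 had 77.3 to 88.8 CPM in the well-watered and 7.54 to 14.7 CPM in the stressed libraries. The others changed with time and are described there. Transcripts with no description numbered 12, of which 1 was an assembled transcript outside the gene models, with ratios from 0.0287 to 0.227. The 4 that drew the most well-watered reads were Zm00001d004721, Zm00001d012091, Zm00001d038382 and Zm00001d032947. Zm00001d004721 had 63.6 to 141 CPM in the well-watered and 5.05 to 13.04 CPM in the stressed libraries, Zm00001d012091 40.2 to 144 CPM in the well-watered and 6.09 to 13.8 CPM in the stressed libraries, Zm00001d038382 36.1 to 106 CPM in the well-watered and 2.18 to 7.59 CPM in the stressed libraries and Zm00001d032947 51.6 to 67.9 CPM in the well-watered and 7.65 to 15.3 CPM in the stressed libraries. None of these 4 overlapped between treatments, which the limits nearly fix.

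Between 24 h and 48 h of well-watered growth, 0 of the 56 transcripts passed the call in edgeR's quasi-likelihood test, where 0.789% of all features were called increased and 0.191% decreased. At an unadjusted p under 0.05, 12 were higher and 3 lower in WW48. The share of all features at that limit was not counted, so nothing is read from these numbers. With DESeq2 the number of calls was also 0 in both directions. The median log2 change was 0.24 for the 56 and −0.0014 for all features tested, and 44 of the 56 changes were above 0. The widest were those of deoxyhypusine synthase, 1.92 (SE 0.53, adjusted p = 0.0804), and the NAD(P)-linked oxidoreductase Zm00001d006365, 1.63 (SE 0.74, adjusted p = 0.286). Without WW24 replicate 2 the first was called at 2.74. Without WW24 replicate 1, a zinc-binding dehydrogenase (Zm00001d007285) and the oxidoreductase Zm00001d031666 were called, at 3.14 and 1.43, and without WS48 replicate 3 the CAP gene Zm00001d029558 at 1.199. WW48 replicate 1 held the highest of the 3 WW48 values in 35 of the 56, or 62.5%, against 31.7% of the other features with at least 10 CPM in both well-watered groups.

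Under stress, 4 transcripts rose and 2 fell from 24 h to 48 h, or 7.14% and 3.57% of the 56, where 0.34% and 0.568% of all features were called. The remaining 50 did not pass, and the median log2 change was 0.06 for the 56 and 0.00 for all features. Among these 50, WRKY DNA-binding protein 40 rose by 1.68 (SE 0.50, adjusted p = 0.113 in edgeR's test). It was called with DESeq2, which gave 5 increased and 2 decreased calls, and in edgeR without WW48 replicate 3. Glutathione S-transferase TAU 18 rose by 2.75 (SE 0.42, adjusted p = 0.00614) on the log2 scale, from 1.05 ± 0.234 to 7.08 ± 0.622 CPM (mean ± SD, n = 3). Its WW48 level was 44.5 ± 18.7 CPM, and the limits themselves keep the WS48 mean of all 56 at or below 0.25 of the lower well-watered mean. The lipoxygenase Zm00001d041204 rose by 1.66 (SE 0.25, adjusted p = 0.00612), from 0.646 ± 0.201 to 2.05 ± 0.551 CPM, and the oxidoreductase Zm00001d031666 by 1.76 (SE 0.36, adjusted p = 0.0257), from 5.61 ± 0.724 to 19.1 ± 4.19 CPM. All 3 WS48 libraries were above all 3 WS24 libraries in these genes. The oxidoreductase was also higher in WW48 than in WW24, by 1.09 (SE 0.31, adjusted p = 0.0911 in edgeR's test). Its change under stress minus that in well-watered tips was 0.67 (SE 0.47, adjusted p = 0.577 in the same test), which was not called. WS48 replicate 3 held the highest of the 3 WS48 values in 40 of the 56, or 71.4%, against 41.6% of the other features with at least 10 CPM in both well-watered groups, and the part of this library in the changes with time was tested only by leaving it out.

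The glutamine amidotransferase-like gene Zm00001d008587, whose family moves an amide group or hydrolyses related substrates, was at 51.6, 67.8 and 41.3 CPM in WW24 and 65.7, 56.6 and 69.4 CPM in WW48, against 1.71, 5.13 and 4.099 CPM in WS24 and 13.2, 9.83 and 11.1 CPM in WS48. It rose by 1.64 (SE 0.30, adjusted p = 0.0149) between the stressed groups. The 1 other tested gene with its description was an increased DAT. The transcripts that fell further were the CBS domain gene and the DUF1218 gene. The CBS domain gene Zm00001d017375, with a module that binds adenosine derivatives, was at 28.6, 34.4 and 31.3 CPM in WW24 and 51.2, 39.7 and 51.8 CPM in WW48, against 6.34, 6.16 and 7.099 CPM in WS24 and 3.05, 3.11 and 2.65 CPM in WS48, a change of −1.15 (SE 0.14, adjusted p = 0.00211) under stress. The DUF1218 gene Zm00001d038325 was at 13.4, 12.4 and 17.2 CPM in WW24 and 14.7, 21.4 and 17.9 CPM in WW48, against 1.76, 4.29 and 3.85 CPM in WS24 and 1.07, 0.605 and 0.478 CPM in WS48, a change of −2.21 (SE 0.36, adjusted p = 0.00787). In both, every WS48 value was below every WS24 value. Called against a log2 change of 1 with glmTreat, 0 of these 6 passed. The oxidoreductase Zm00001d031666 was also lost when any 1 of the 6 stressed libraries was left out, and Zm00001d008587 without WS48 replicate 1.

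**Figure D2:**
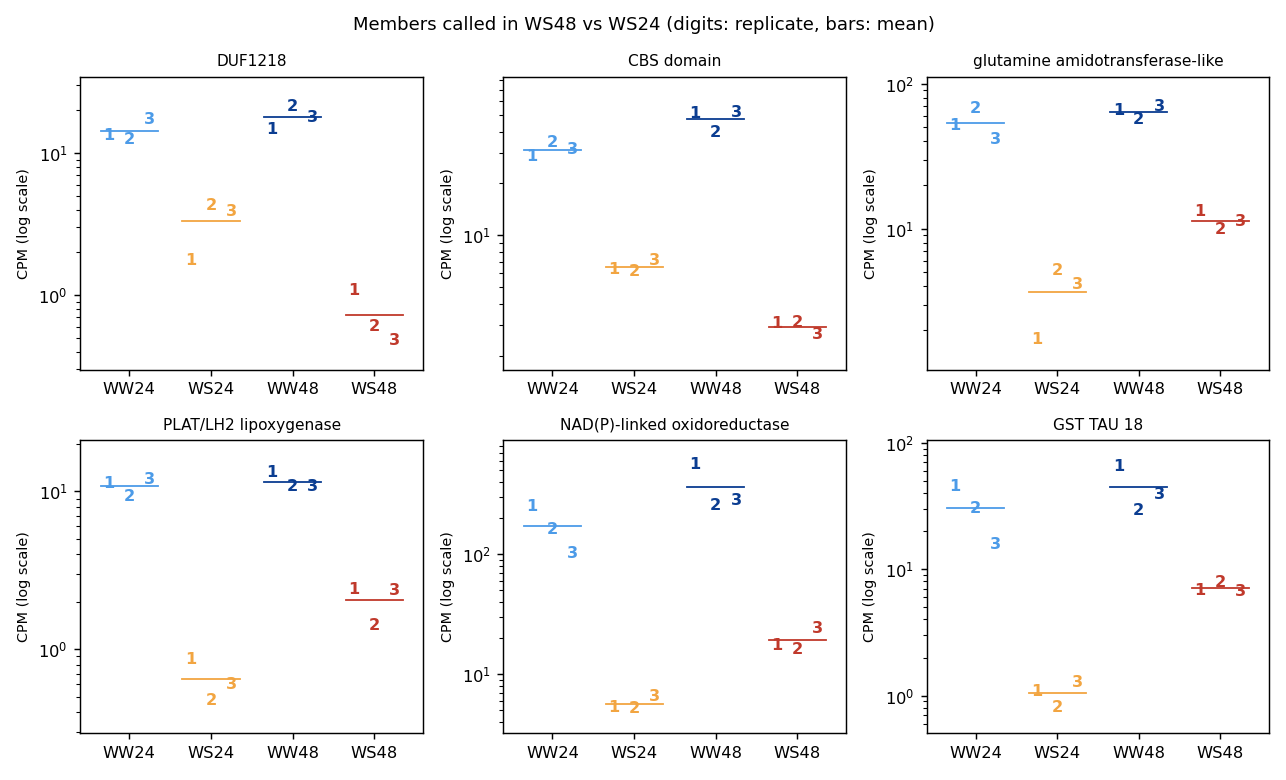
Levels of the 6 transcripts called between WS24 and WS48, in CPM on log axes, with digits for the replicate number and bars for the group mean (n = 3). The DUF1218 and CBS domain genes step down from WS24 to WS48 and the other 4 step up. The gap to the well-watered groups is set by the limits.

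**Figure D3:**
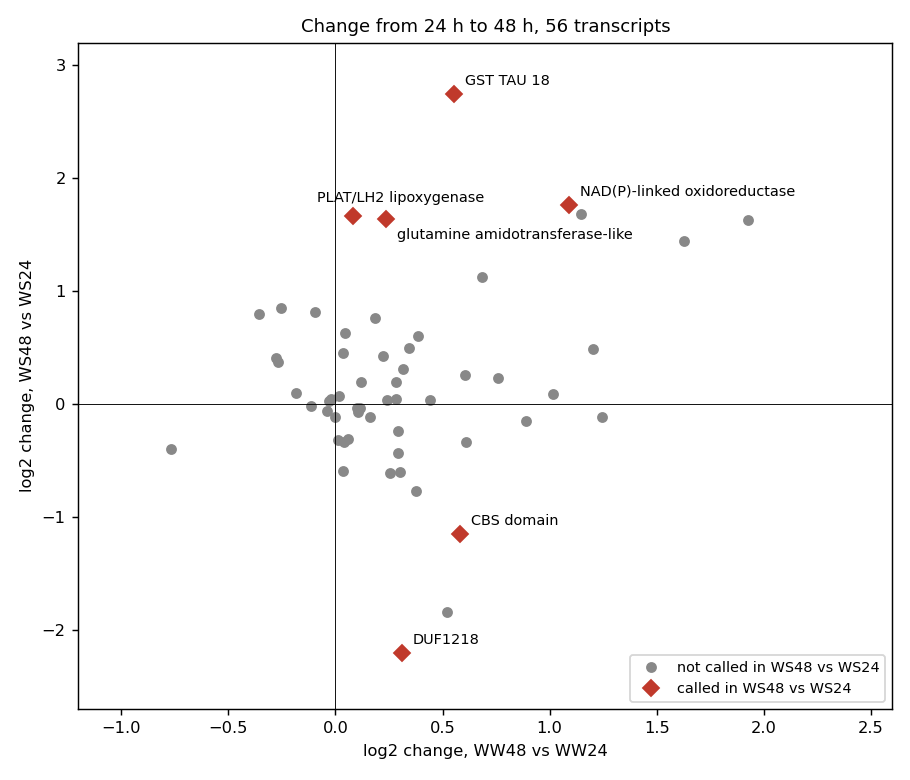
Log2 change from WW24 to WW48 (horizontal axis) against that from WS24 to WS48 (vertical axis) for the 56 transcripts. The 6 called under stress (diamonds) range up to 2.75 for glutathione S-transferase TAU 18 and down to −2.21 for the DUF1218 gene. The other 50 (circles) did not pass the call, though some lie further from zero than the called CBS domain gene at −1.15. The potato inhibitor I-type gene, not called, is at −1.85.

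The change with time differed between stressed and well-watered tips for 2 of the 56, the CBS domain and the DUF1218 gene. Their interaction terms, the log2 change under stress minus that in well-watered tips, were −1.74 (SE 0.19, adjusted p = 0.00278) and −2.52 (SE 0.45, adjusted p = 0.0311). The CBS domain gene went from 31.4 ± 2.92 to 47.6 ± 6.7996 CPM in well-watered tips, a log2 change of 0.58 (SE 0.12, adjusted p = 0.0313) in edgeR's test, opposite in sign to its fall under stress and below the fold a call takes. Decreased calls for this term covered 0.254% of all features and 3.57% of the 56, and increased calls 0.131% and 0. At an unadjusted p under 0.05, 8 of the 56 were above and 7 below 0. Here too the share of all features was not counted, and nothing is read from these numbers. With DESeq2, 3 had an increased call, namely glutathione S-transferase TAU 18, the lipoxygenase and the undescribed Zm00001d053445, the last named after its values were seen. The call of the DUF1218 gene was lost when any of 6 libraries (WW24 replicate 2, WW48 replicate 2, WS24 replicates 2 and 3, WS48 replicates 1 and 2) was left out and in the replicate block fit, at −2.46, and both calls were lost with glmTreat.

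Some transcripts were uneven among the well-watered libraries. The highest library was more than 4 times the lowest in WW24 or WW48 for 8 of the 56, while 23 stayed within 1.5 times in both groups. The stressed groups were uneven too. The median coefficient of variation of the 56 was 15.2% in WW24, 21.3% in WW48, 18.3% in WS24 and 23.1% in WS48, against 5.80%, 7.29%, 6.82% and 6.62% for the other features with at least 10 CPM in both well-watered groups. These other features were not matched for level. The higher stressed mean of the 56 had a median of 6.81 CPM, and the part of low counts in the stressed values was not tested. Myb domain protein 48 (Zm00001d035605) was at 82.4, 0.82 and 1.09 CPM in WW24 and 5.36, 75.1 and 3.14 CPM in WW48, against 1.69, 3.46 and 1.27 CPM in WS24 and 1.72, 2.02 and 3.02 CPM in WS48. Its well-watered mean rested on WW24 replicate 1 and WW48 replicate 2, and its other 4 well-watered libraries lay at or near the stressed range, so the fall of its mean was not shared by most of its libraries. The potato inhibitor I-type gene Zm00001d011080, of wound-related serine protease inhibitors, was at 96.5, 7.54 and 10.9 CPM in WW24 and 41.9, 108 and 11.7 CPM in WW48, against 5.501, 8.7002 and 7.47 CPM in WS24 and 3.76, 1.05 and 1.26 CPM in WS48. Its highest values came from the same libraries, WW24 replicate 1 and WW48 replicate 2.

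The zinc-binding dehydrogenase Zm00001d007285 was at 52.6, 7.66 and 3.26 CPM in WW24 and 102, 16.4 and 28.5 CPM in WW48, against 3.07, 5.04 and 4.27 CPM in WS24 and 3.81, 3.16 and 4.46 CPM in WS48. Here WW24 replicate 3 lay within the WS24 values. With either WW24 replicate 1 or WW48 replicate 2 left out, myb domain protein 48 and the inhibitor no longer met the limits, and the dehydrogenase did not without WW24 replicate 1. The gene with a Rossmann fold for NAD(P), Zm00001d020958, was at 12.2, 64.1 and 61.1 CPM in WW24 and 131, 20.5 and 72.9 CPM in WW48, against 2.903, 3.39 and 2.42 CPM in WS24 and 4.84, 5.69 and 8.4997 CPM in WS48. Deoxyhypusine synthase was likewise higher in WW24 replicate 2 and WW48 replicate 1 than in the rest of their groups. An undescribed transcript, Zm00001d043702, named after its values were seen, was at 51.8, 12.7 and 14.04 CPM in WW24 and 9.59, 43.96 and 19.7 CPM in WW48, against 1.03, 1.01 and 0.3 CPM in WS24 and 1.26, 1.01 and 1.87 CPM in WS48, again highest in WW24 replicate 1 and WW48 replicate 2. These differences lie between libraries with the same label.

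**Figure D4:**
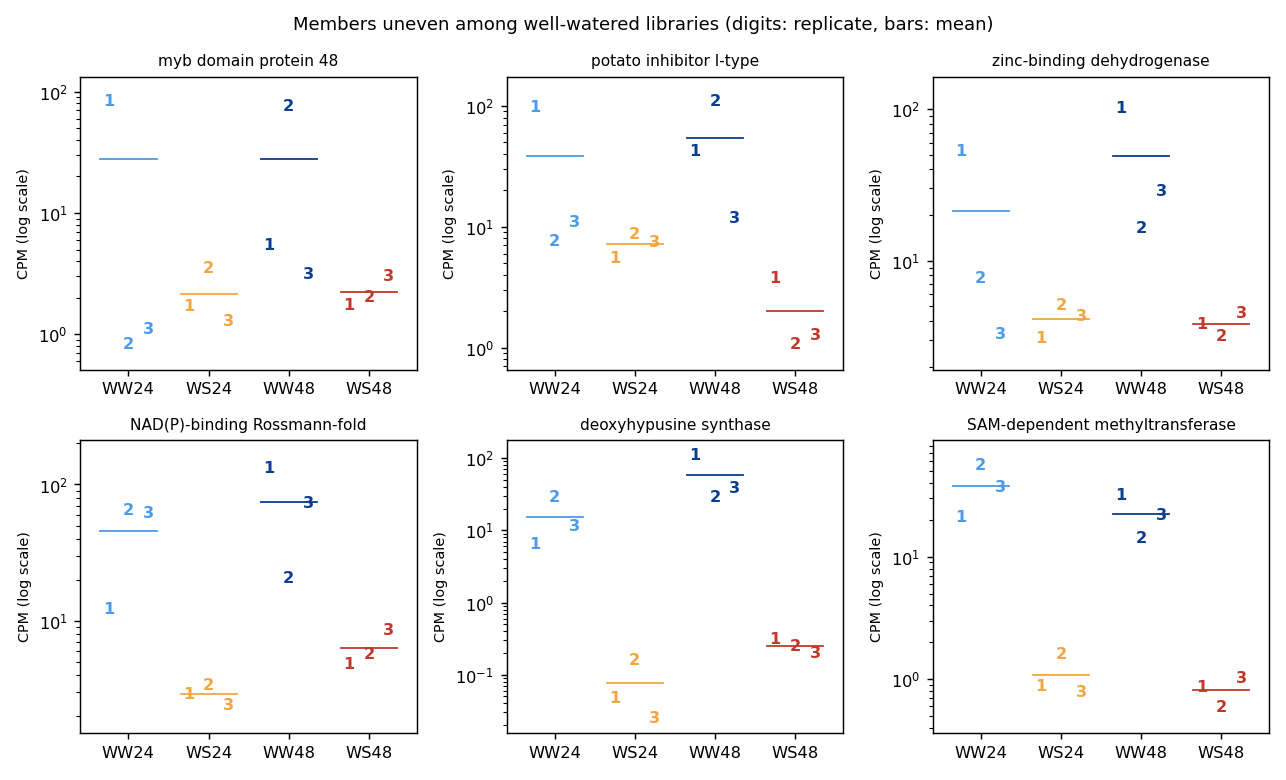
Levels of 6 transcripts that differ among well-watered libraries, in CPM on log axes, with digits for the replicate number and bars for the group mean (n = 3). Myb domain protein 48 stands at 82.4 CPM in WW24 replicate 1 and 75.1 CPM in WW48 replicate 2 but from 0.82 to 5.36 CPM in the other 4 well-watered libraries.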

How the data were processed

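Raw read counts per gene, as deposited, were used. The authors made strand-specific libraries, sequenced them in paired-end mode, aligned reads with HISAT2 and counted them with HTSeq (versions 1.0 and 0.6.1 in the submitters' processing notes) on B73 RefGen_v4, to which the methods add an FR697 assembly. Whether counting used strand was not stated in the sources, which leaves overlapping and antisense genes uncertain. The authors also deposited normalized values rounded to whole numbers, treated as a score and not used. Summary rows (19.3 to 29.3% of all rows' counts) were left out.

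The members and lists were chosen with earlier results of these data known. All 12 libraries entered 1 edgeR 4.0.16 fit (R 4.3.3, filterByExpr with minimum count 10, TMM factors 0.926 to 1.06), with a mean per group, quasi-likelihood F-tests and Benjamini-Hochberg adjustment over 26746 features. An SE is the log2 change divided by the square root of F. Levels are CPM over unadjusted library sums. The procedure was tested on simulated data for WW48 vs WW24 and WS48 vs WS24 only, with the outcome not given here. The interaction was not covered. No replicates agreed within sampling noise (chi-square per feature 5.48 to 34.52). Alternatives were other scalings, DESeq2 1.42.0, no filter, glmTreat, the replicate block and leaving out each library. Named transcripts were described members by list, ratio, calls, limits and unevenness, and the 4 undescribed ones with most well-watered reads, and 2 more undescribed ones were named after their values were seen. Descriptions of 1581 genes came from the study's tables, of whose values none was used. Of the members, 0 matched the RefSeq table (Zm-B73-REFERENCE-NAM-5.0), so sequences and positions are not given.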

Additional observations from a re-analysis of the deposited data

Results flagged for a closer look

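The change from 24 h to 48 h differed between stressed and well-watered tips, by the interaction term of the edgeR fit, for the CBS domain gene Zm00001d017375, with a log2 difference of −1.74 (SE 0.19, adjusted p = 0.00278), and for the DUF1218 gene Zm00001d038325, with −2.52 (SE 0.45, adjusted p = 0.0311). Both continued to fall under stress, in 3 of 3 WS48 libraries against every WS24 library. Of 18 alternative settings, 17 kept the call of the first gene and 10 that of the second. The second gene no longer met the limits of the set with the median, without WW24 replicate 3 or without WS24 replicate 1.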

How the results depend on the processing

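The number of transcripts that met the limits was 107 with the looser and 32 with the stricter ratio limit, and 52 to 61 when 1 library was left out. It stayed within 1.5 times of 56 with the other level limits, scalings and the median. A similar number did not mean the same members. With the median, 50 of the 56 met the limits and 4 other features entered. The DUF1218 gene Zm00001d038325 was among those lost, and also dropped out without WW24 replicate 3 or WS24 replicate 1. Deoxyhypusine synthase dropped out without WW24 replicate 2, and the glutathione S-transferase Zm00001d029696 without WW24 replicate 1. Requiring every well-watered library above every stressed one, chosen after seeing the data, left 53. With glmTreat, calls among the 56 went to 0 increased and 0 decreased for WS48 vs WS24 and to 0 decreased for the interaction, and DATs went to 693 increased and 432 decreased, since this test asks for evidence beyond a log2 change of 1. Increased interaction calls, 0 in the main fit, became 1 with no scaling factors, 1 with no low-count filter and 3 with DESeq2.

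Leaving out 1 library gave 0 to 2 increased and 0 decreased calls for WW48 vs WW24, 2 to 5 increased and 2 to 3 decreased for WS48 vs WS24, 0 to 1 increased and 1 to 3 decreased for the interaction, and 1296 to 1511 increased and 949 to 1166 decreased DATs. The oxidoreductase Zm00001d006365 turned from 1.44 to −0.48 in WS48 vs WS24 without WS48 replicate 3, the lowest of a range that reached 1.89 without WS48 replicate 1. In the replicate block fit, interaction calls were 1 increased and 1 decreased. Samples with the same number shared only that number, with correlations of their deviations from −0.504 to 0.111 over 18 pairs. Pairs with different numbers went from −0.339 (WW48 replicate 1, WS48 replicate 2) to 0.477 (WW48 replicate 3, WS48 replicate 2). The value was 0.431 for WW48 replicate 1 with WS48 replicate 3. Links between different numbers are not covered by the replicate block. Low stressed counts limit the folds of the DUF594 and deoxyhypusine synthase genes.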

Other observations

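The well-watered pattern of myb domain protein 48 was searched for in the table. WW24 replicate 1 and WW48 replicate 2 both had at least 10 CPM and at least 4 times the highest of the other 4 well-watered libraries in 3 of 42976 features, a search made after its values were seen and given with no test. Only 12576 features had a mean of at least 10 CPM in both well-watered groups. Other pairs of libraries were not counted, so the 3 has no baseline. The second feature, Zm00001d045311, had 52.3 and 33.5 CPM in those libraries and 0.8904 to 3.237 CPM in the other well-watered ones, but 52.7 to 59.3 CPM in WS24 and 30.3 to 33.4 CPM in WS48. The third, Zm00001d049543, had 39.6 and 41.2 CPM there, 6.28 to 7.46 CPM in the other well-watered libraries and 10.1 to 23.7 CPM in the stressed ones. Neither carried a description. The limits turned around, with at least 10 CPM in both stressed groups and at most 0.25 of the lower of these in both well-watered groups, were met by 168 features, against 65 for the limits used here. Features with at least 10 CPM in both stressed groups were not counted, so the 168 has no share beside it. Both counts rest on unadjusted library sums. Over TMM-adjusted library sizes the set of 56 became 64, and the turned limits were not counted that way.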
